A study of Mus musculus with 12 samples.

Results

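The AP-1 family of Fos and Jun genes comprises Fos, Fosb, Fosl1, Fosl2, Jun, Junb and Jund. These 7 genes were taken by symbol from the 53351 genes of the deposited table. All 7 passed the filter on low values that left 20240 genes tested. Levels were measured by RNA sequencing in wild-type mouse cells from E13.5 embryonic cortices, labelled primary neural progenitor cells. The cells were grown overnight with B-27, bFGF and EGF, so growth factors were present in every group. They received Torin1, an inhibitor of the kinase mTOR, at 250 nM for 2 h, or DMSO, its solvent, for the same 2 h. All cells then received cycloheximide at 100 ug/ml for 5 min, which holds ribosomes on mRNAs. Of each lysate 10% was kept as total mRNA, and the gradient fractions in which an mRNA carries more than 3 ribosomes were collected as polysome mRNA. There were 12 libraries, 3 biological replicates for each of 4 groups: total mRNA of Torin1 cells, total mRNA of DMSO cells, polysome mRNA of Torin1 cells and polysome mRNA of DMSO cells.

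Proteins of the family bind DNA as dimers joined by a leucine zipper. Fos proteins do not form stable dimers with each other and need a Jun protein or another basic leucine zipper partner, whereas Jun proteins can also pair among themselves. The family holds several classic immediate early genes, Fos, Fosb and Junb among them, whose short-lived mRNAs appear within minutes of growth factor or calcium signals. Fosl1 and Fosl2 encode the Fos-related proteins Fra-1 and Fra-2, which lack the strong carboxy-terminal activation domain of Fos. Jun is itself an AP-1 target and the main substrate of JNK kinases, while Jund is broadly expressed in unstimulated cells and has been described as restraining growth in mouse fibroblasts.

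Values are levels in ppm, the share of the mean library total taken by a gene, after a scaling that sets the typical gene equal between libraries, and depth in reads is unknown because the deposited values are not read counts. Column totals ran from 14341674 to 19201406. The lowest nonzero values fell with gene span, with a median of 0.950 ppm for spans of 200 to 400 bases and 0.0502 ppm for 4000 to 8000 bases. The values therefore behave as levels per length, and levels are compared between genes on that basis. Within groups Pearson's r across 9222 expressed genes was at least 0.9749 and at most 0.9923. One library stood apart, total Torin1 replicate 2, with 2069 ppm of the small nuclear RNA gene Rn7sk against 38.7 to 183 ppm in the other 5 total libraries.

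Markers of the labelled cell type were present in every library. The 8 progenitor markers, Sox2 and Pax6 among them, summed to between 3885 and 3984 ppm in total Torin1 and 3432 to 3532 ppm in total DMSO libraries, and to 4518 to 6911 ppm in polysome Torin1 and 4965 to 6034 ppm in polysome DMSO libraries. Most of that sum came from Fabp7 and Vim, which averaged 2989 and 1309 ppm over the 12 libraries. Sox2 and Pax6 averaged 109 and 52.5 ppm. Neuron markers such as Tubb3 and Dcx, 6 in all, summed to 2862 to 2962 ppm in total Torin1 and 2775 to 2835 ppm in total DMSO libraries, and to 2939 to 3280 ppm in polysome Torin1 and 3031 to 3173 ppm in polysome DMSO libraries. The 6 meningeal markers summed to 52.0 to 64.5 ppm in total Torin1 and 31.4 to 38.6 ppm in total DMSO libraries, and to 47.9 to 68.6 ppm in polysome Torin1 and 34.4 to 40.6 ppm in polysome DMSO libraries. Of them Col1a1, Col1a2 and Col3a1 rose in total mRNA, and Col1a1 and Col1a2 in polysome mRNA. Of the other marker lists 3 of 8 progenitor genes rose in each fraction. They were Sox2, Vim and Hes1 in total mRNA and Sox2, Hes1 and Hes5 in polysome mRNA. In each fraction 1 of 5 endothelial genes (Cldn5) rose, and 0 of 6 neuron and 0 of 7 microglial genes passed (limma, adjusted p under 0.05). Over all genes tested 3.04% rose and 4.35% fell in total mRNA, and 4.57% rose and 5.45% fell in polysome mRNA. The 5 endothelial markers summed to 14.0 to 14.6 ppm in total Torin1 and 9.97 to 10.4 ppm in total DMSO libraries, and 7 microglial markers to 7.98 to 10.6 ppm with Torin1 and 6.11 to 12.005 ppm with DMSO. In polysome mRNA the endothelial sum was 19.6 to 23.1 ppm with Torin1 and 13.6 to 17.2 ppm with DMSO, and the microglial sum 14.1 to 18.9 ppm with Torin1 and 11.9 to 14.4 ppm with DMSO. No marker of these lists was at 0 in any library except the microglial P2ry12 in polysome Torin1 replicate 1. The part of these other cells in the results below was not tested, and in bulk samples fewer cells of a type and less RNA per cell cannot be told apart.

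The promoters show what sequence lies before the genes that rose and before Jund. RefSeq promoter windows (GRCm38.p6) matched 6 of the 7 genes, with Fosl1 unmatched, and the 250 bases before the annotated start are used here. Shown in full are Fos, Fosl2 and Junb, which rose, and Jund, which fell, each 5′ to 3′ on the gene's own strand. Capitals mark every match, searched on both strands, to the core of the cAMP response element, TGACG, to the core promoter box TATAAA or to CCAAT. The Fos window is chr12:85473640-85473889 (+), the Fosl2 window chr5:32136222-32136471 (+), the Junb window chr8:84978749-84978998 (-) and the Jund window chr8:70697489-70697738 (+).
Fos: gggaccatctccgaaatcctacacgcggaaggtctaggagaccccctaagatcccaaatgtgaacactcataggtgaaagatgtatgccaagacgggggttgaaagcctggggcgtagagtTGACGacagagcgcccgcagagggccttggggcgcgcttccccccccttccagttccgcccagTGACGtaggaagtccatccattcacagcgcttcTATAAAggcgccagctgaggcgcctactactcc
Fosl2: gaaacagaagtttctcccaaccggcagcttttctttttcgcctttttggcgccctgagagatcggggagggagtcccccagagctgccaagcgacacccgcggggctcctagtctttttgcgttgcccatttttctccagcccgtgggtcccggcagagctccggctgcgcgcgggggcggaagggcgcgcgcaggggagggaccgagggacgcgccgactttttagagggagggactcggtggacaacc
Junb: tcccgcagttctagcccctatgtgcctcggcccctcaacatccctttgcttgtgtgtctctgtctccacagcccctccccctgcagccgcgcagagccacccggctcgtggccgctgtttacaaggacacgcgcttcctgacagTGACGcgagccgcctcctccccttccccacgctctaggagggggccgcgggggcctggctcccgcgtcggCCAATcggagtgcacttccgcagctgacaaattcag
Jund: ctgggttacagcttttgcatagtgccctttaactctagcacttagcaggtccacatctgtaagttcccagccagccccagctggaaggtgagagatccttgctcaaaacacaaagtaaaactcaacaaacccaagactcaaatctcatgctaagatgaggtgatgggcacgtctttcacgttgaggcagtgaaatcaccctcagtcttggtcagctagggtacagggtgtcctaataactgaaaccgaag
TGACG was found in 3 of the 6 windows, those of Fos, Fosb and Junb, against 17.8% of all 32851 windows. In Fos its first bases lie 129 and 66 bases before the start, and in Junb 106. In Fosb it lies 60 bases before the start used for the window, which falls inside the annotated gene span. TATAAA was found in Fos alone, 33 bases before the start, against 12.4% of all windows. CCAAT was found in Jun and Junb, 65 and 36 bases before the start, against 33.8% of all windows. Neither the AP-1 site TGANTCA (6.75% of all windows), the full cAMP response element TGACGTCA (1.55%) nor the CArG box, the serum response factor motif (1.47%), matched any of the 6 windows. TGACGTCA contains TGACG, so those 2 searches overlap. The Jun window, not shown, holds TGACATCA, a close relative of these motifs that none of the patterns matches. The Fosl2 and Jund windows held no match to any of the 6 motifs. The Fosb window overlaps the annotated gene span and is not shown. Its TGACG lies within that span, so it counts for the window and not as a match before the gene. These are matches of letters and not measured sites. Sites farther than 250 bases before the start, or spelled otherwise, were not searched. A window without a match thus does not mean that the gene lacks such a site, the CArG box of Fos included.

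Torin1 against DMSO was compared in total mRNA to see which AP-1 transcripts changed in amount, and in polysome mRNA to see which changed among mRNAs with more than 3 ribosomes. The answer was alike in kind in both fractions. Fos, Fosb, Fosl2 and Junb rose, Jund fell, and Jun and Fosl1 passed the test in neither. So 4 of 7 members rose and 1 fell in each fraction, at an adjusted p under 0.05 in limma, a linear model fitted over all 20240 genes. Of all genes tested 3.04% rose and 4.35% fell in total mRNA, and 4.57% rose and 5.45% fell in polysome mRNA. The members' median log2 fold was 0.73 in total and 0.85 in polysome mRNA, against -0.01 and 0.00 over all genes. In 4 of 7 members the 3 Torin1 libraries lay above the 3 DMSO libraries and in 1 they lay below, likewise in each fraction. Of all genes 14.7% lay above and 18.7% below in total mRNA, and 11.7% above and 12.3% below in polysome mRNA. Because each library is scaled to its own total, an overall gain or loss of polysomes is outside these values. Without total Torin1 replicate 2, the library with high Rn7sk, Fos, Fosl2 and Junb still passed in total mRNA (log2 folds 1.14, 0.94 and 0.74, limma, adjusted p = 0.000999, 0.00662 and 0.0146), and Fosb and Jund did not.

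**Figure D1:**
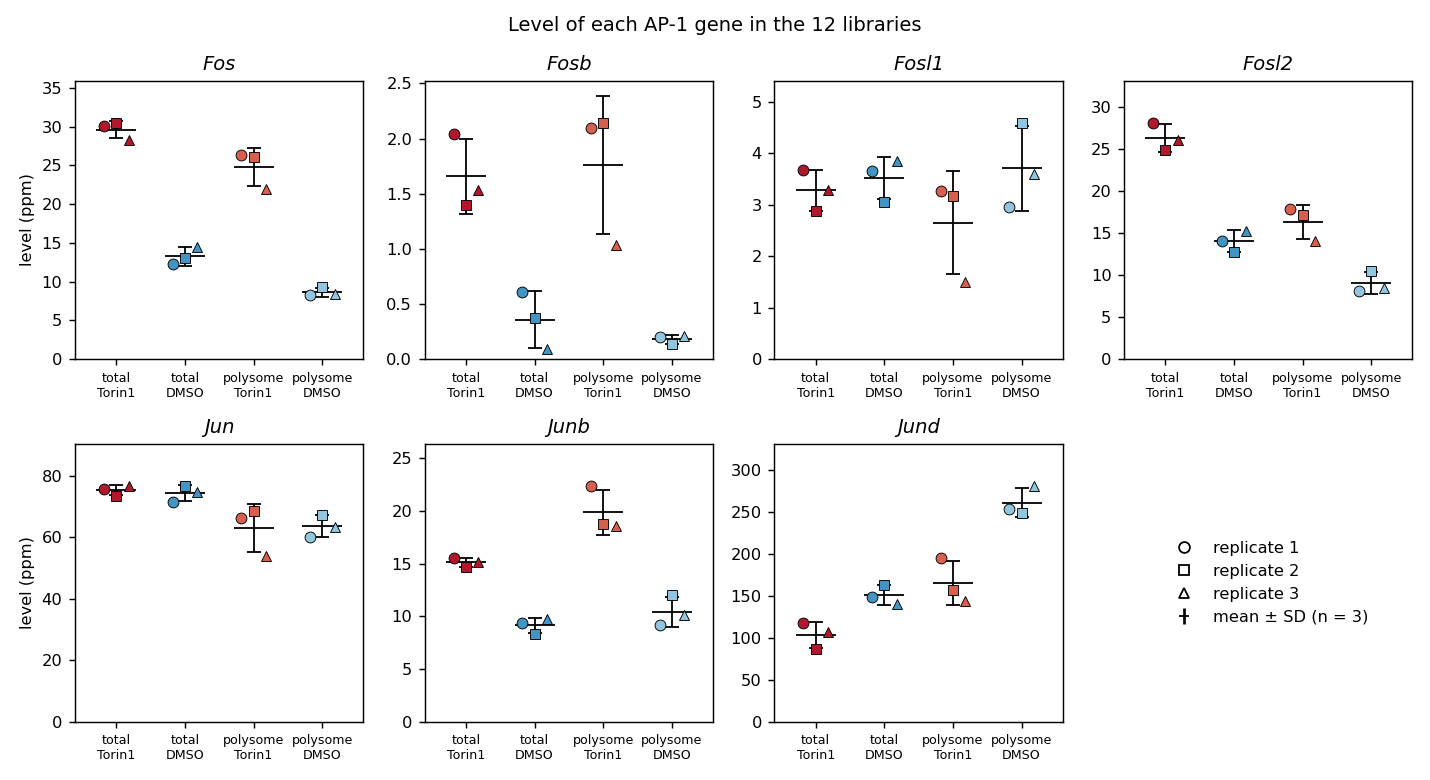
Level (ppm) of each of the 7 AP-1 genes in the 12 libraries, one panel per gene, with total and polysome mRNA of Torin1 cells (red) and DMSO cells (blue). Symbols are replicates 1 to 3 and bars the mean ± SD (n = 3). Fos, Fosb, Fosl2 and Junb were higher in every Torin1 library than in any DMSO library of the same fraction, Jund was lower in every Torin1 library, and the groups of Jun and Fosl1 overlapped.

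Fos, the prototype partner of Jun in AP-1, lies on chromosome 12 (GRCm38, 85473890 to 85477274, gene ENSMUSG00000021250). In total mRNA it stood at 30.1, 30.4 and 28.3 ppm in Torin1 libraries and at 12.2, 13.0 and 14.5 ppm in DMSO libraries. In polysome mRNA it stood at 26.4, 26.1 and 21.97 ppm in Torin1 libraries and at 8.23, 9.32 and 8.34 ppm in DMSO libraries. Every Torin1 library thus held more Fos than any DMSO library of its fraction, and the lowest Torin1 value lay well clear of the highest DMSO value. The log2 fold was 1.16 ± 0.10 (SE) in total mRNA, 2.24-fold (limma, adjusted p = 0.000113). In polysome mRNA it was 1.52 ± 0.10, 2.86-fold (limma, adjusted p = 9.83e-06). By p-value Fos ranked 12 of 20240 genes in total mRNA and 6 of 20240 in polysome mRNA. Larger folds than that of Fos were fitted for 3.88% of genes in total and 1.81% in polysome mRNA. With the polysome libraries fitted alone the polysome call held at a weaker adjusted p of 0.0203 (limma).

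Fosb, an immediate early gene known in neurons for its stable splice form ΔFosB, was the least abundant member in every group. It lies on chromosome 7 (19302696 to 19310118, gene ENSMUSG00000003545). In total mRNA it stood at 2.04, 1.40 and 1.53 ppm in Torin1 libraries and at 0.605, 0.376 and 0.0901 ppm in DMSO libraries. Polysome mRNA held 2.10, 2.14 and 1.04 ppm in Torin1 libraries and 0.196, 0.132 and 0.208 ppm in DMSO libraries. The groups did not overlap in either fraction, and the values within a group spread widely. The log2 folds were the largest of the family, 2.28 ± 0.50 in total mRNA (limma, adjusted p = 0.0185) and 2.88 ± 0.50 in polysome mRNA (limma, adjusted p = 0.00362), and the SE was also the largest. The call in total mRNA was lost without Torin1 replicate 1, 2 or 3 (log2 folds 2.12, 2.39 and 2.32, limma, adjusted p = 0.0692, 0.0501 and 0.0563), and when the total libraries were fitted alone (adjusted p = 0.0537). Without total DMSO replicate 3, the library with the lowest value, the log2 fold was 1.66 (adjusted p = 0.0461). The polysome call held with the polysome libraries fitted alone (limma, adjusted p = 0.0352).

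Fosl2, which encodes Fra-2, lies on chromosome 5 (32136472 to 32157840, gene ENSMUSG00000029135). It stood at 28.0, 24.8 and 26.0 ppm in total Torin1 libraries and at 14.1, 12.7 and 15.3 ppm in total DMSO libraries. Polysome libraries held 17.8, 17.1 and 14.0 ppm after Torin1 and 8.12, 10.5 and 8.41 ppm after DMSO. Groups were apart in both fractions. The log2 fold was 0.90 ± 0.12 in total mRNA, 1.87-fold (limma, adjusted p = 0.00146), and 0.85 ± 0.12 in polysome mRNA, 1.81-fold (limma, adjusted p = 0.00116). With the polysome libraries fitted alone the polysome call was lost (adjusted p = 0.0540).

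Fosl1, which encodes Fra-1 and is a known target of ERK signalling and of AP-1 itself in other cells, gave no call. It lies on chromosome 19 (5447698 to 5455938, gene ENSMUSG00000024912). Its levels were 3.68, 2.88 and 3.28 ppm in total Torin1 libraries and 3.65, 3.06 and 3.85 ppm in total DMSO libraries. In polysome mRNA they were 3.27, 3.17 and 1.501 ppm with Torin1 and 2.94, 4.57 and 3.59 ppm with DMSO. The groups overlapped in both fractions. The log2 fold was -0.10 in total mRNA (95% interval -0.71 to 0.51, limma, adjusted p = 0.888) and -0.53 in polysome mRNA (-1.14 to 0.07, limma, adjusted p = 0.274). The intervals allow a fall of more than the size fitted for Jund and, in total mRNA, a rise of up to 0.51. Without polysome Torin1 replicate 3, which held 1.501 ppm, the polysome log2 fold was -0.18.

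Junb, an immediate early Jun gene whose protein activates weakly on its own and can oppose Jun, lies on chromosome 8 (84976909 to 84978748, gene ENSMUSG00000052837). Total Torin1 libraries held 15.6, 14.7 and 15.1 ppm and total DMSO libraries 9.37, 8.30 and 9.74 ppm. Polysome Torin1 libraries held 22.4, 18.8 and 18.6 ppm and polysome DMSO libraries 9.16, 12.003 and 10.1 ppm. All Torin1 values lay above all DMSO values in both fractions. The log2 fold was 0.73 ± 0.12 in total mRNA, 1.65-fold (limma, adjusted p = 0.00355), and 0.93 ± 0.12 in polysome mRNA, 1.91-fold (limma, adjusted p = 0.000416). Fitted on the polysome libraries alone, the polysome call held at a weaker adjusted p of 0.0384 (limma).

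Jun, the c-Jun gene, lies on chromosome 4 (95049036 to 95052222, gene ENSMUSG00000052684) and was the second most abundant member in every group. It stood at 75.8, 73.4 and 76.6 ppm in total Torin1 libraries and at 71.5, 76.6 and 74.8 ppm in total DMSO libraries. Polysome values were 66.3, 68.5 and 54.0 ppm after Torin1 and 60.2, 67.2 and 63.4 ppm after DMSO. Groups overlapped in both fractions. The log2 fold was 0.02 in total mRNA (95% interval -0.17 to 0.20, limma, adjusted p = 0.936) and -0.02 in polysome mRNA (-0.21 to 0.17, limma, adjusted p = 0.924). These are the narrowest intervals among the 7 members, and they leave out a change of the size fitted for Fos, Fosl2, Junb or Jund.

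Jund was the most abundant member in every group and the one that fell. It lies on chromosome 8 (70697739 to 70700616, gene ENSMUSG00000071076). In total mRNA it stood at 118, 87.1 and 106 ppm in Torin1 libraries and at 149, 163 and 140 ppm in DMSO libraries. In polysome mRNA it stood at 195, 157 and 144 ppm in Torin1 libraries and at 253, 248 and 281 ppm in DMSO libraries. Each Torin1 library was below each DMSO library of its fraction. The log2 fold was -0.55 ± 0.13 in total mRNA, 0.685-fold (limma, adjusted p = 0.0221), and -0.66 ± 0.13 in polysome mRNA, 0.631-fold (limma, adjusted p = 0.00571). The call in total mRNA was lost without DMSO replicate 1 or 2 (limma, adjusted p = 0.0650 and 0.0845) and without Torin1 replicate 2 or 3 (0.0799 and 0.0545), with a log2 fold between -0.43 and -0.57. The polysome call was lost under scaling by the column total (log2 fold -0.42, adjusted p = 0.0642), which shifts the median gene by 0.23 upward, and with the polysome libraries fitted alone (adjusted p = 0.0662).

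**Figure D2:**
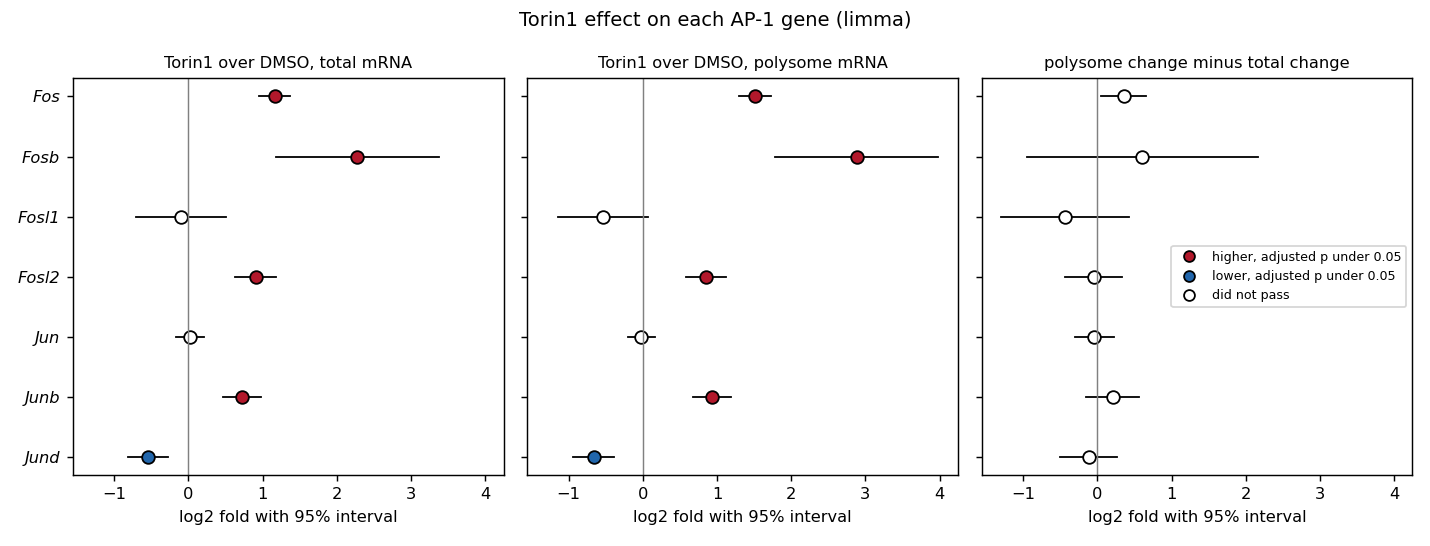
Log2 fold of Torin1 over DMSO in total mRNA (left) and polysome mRNA (middle), and the polysome change minus the total change (right), with 95% intervals from limma for the 7 AP-1 genes. Filled points pass an adjusted p of 0.05. Filled points of Fos, Fosb, Fosl2 and Junb lie to the right of 0 and that of Jund to the left in the left and middle panels, and no point is filled in the right panel.

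Since Jund fell where 4 members rose, each member was also set against Jund within the same library, a ratio that needs no scaling between libraries. The contrast was drawn up with earlier results of these data known and is a description. Fos stood at 25.6% to 34.9% of the Jund level in total Torin1 libraries and at 7.96% to 10.4% in total DMSO libraries, a 3.27-fold higher ratio (log2 difference 1.71). In polysome mRNA it stood at 13.55% to 16.6% of Jund with Torin1 and 2.97% to 3.76% with DMSO, 4.55-fold higher (log2 difference 2.19). The Fosl2 to Jund ratio was 2.74-fold higher with Torin1 in total and 2.87-fold higher in polysome mRNA, and the Junb to Jund ratio 2.42-fold and 3.04-fold higher. Jun, whose own level gave no call, stood at 64.5% to 84.3% of Jund in total Torin1 libraries against 46.9% to 53.6% in total DMSO libraries, 1.48-fold higher. Fosb over Jund was 8.71-fold higher in total and 15.1-fold higher in polysome mRNA, from the low Fosb values above. Fosl1 over Jund was 1.36-fold higher in total mRNA and overlapped in polysome mRNA (1.09-fold).

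Of these 12 ratios 11 were apart between the groups, and an exact two-sided permutation test over the 6 libraries of a fraction gave p = 0.1 for each, the smallest p that 3 against 3 libraries allow. Adjusted over the 12 ratios that is 0.109, and the Fosl1 ratio in polysome mRNA gave p = 0.9 in the same exact test. The design cannot reach a p of 0.05 here. For Fos, Fosb, Fosl2 and Junb the outcome was fixed beforehand, since their groups and those of Jund already lay apart in opposite directions. For them the test adds no support to the contrast. All 12 ratios share their Jund values and are not independent of each other. Jund was itself lower in every Torin1 library, so a ratio can be apart without a change in the other member. Jun, whose own groups overlapped, is such a case. The share of all genes whose ratio to Jund was apart was not computed. The count of 11 is therefore not a result about the other members. Leaving out 1 library at a time, the log2 difference of Fos over Jund lay between 1.57 and 1.83 in total mRNA and between 2.11 and 2.28 in polysome mRNA.

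**Figure D3:**
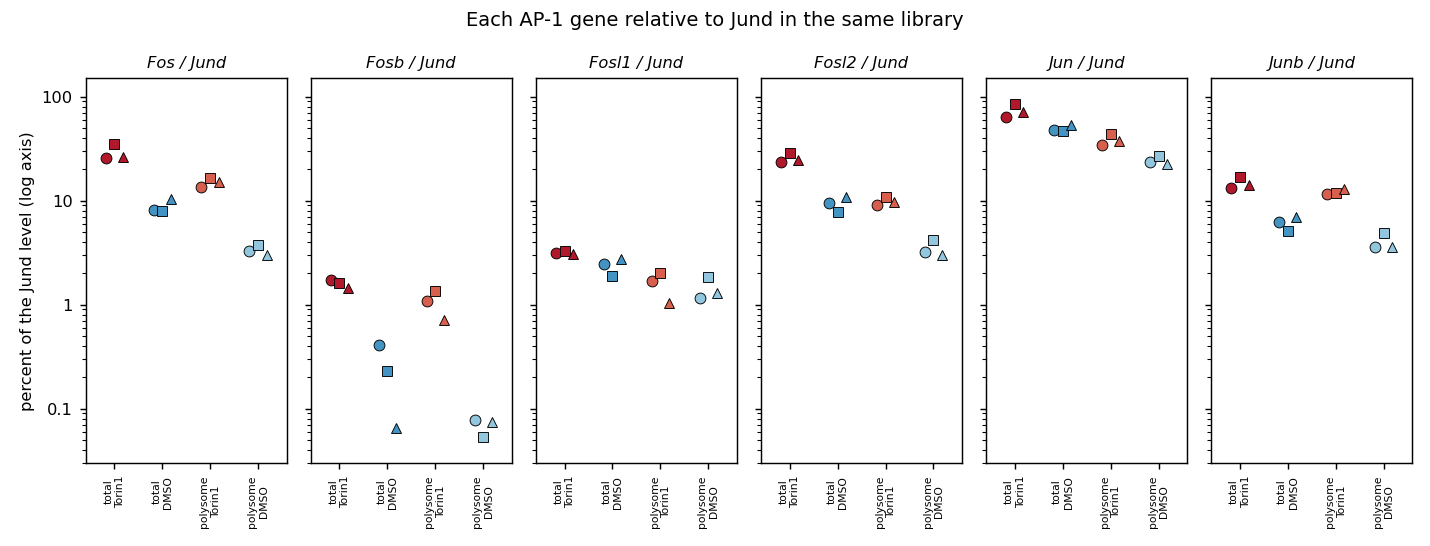
Each member's level as a percent of the Jund level in the same library (log axis), for total and polysome mRNA of Torin1 cells (red) and DMSO cells (blue), with circles, squares and triangles for replicates 1, 2 and 3. Fos, Fosl2 and Junb sit higher in each Torin1 group than in the DMSO group of the same fraction, while Fosl1 overlaps in polysome mRNA.

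The makeup of the AP-1 mRNA pool differed accordingly. Jund made up 40.5% ± 3.1 of the summed level of the 7 members in total Torin1 libraries and 56.7% ± 2.4 in total DMSO libraries (SD, n = 3 each). In polysome mRNA it made up 56.2% ± 2.4 with Torin1 and 73.2% ± 2.3 with DMSO. Fos made up 11.7% with Torin1 and 5.00% with DMSO in total mRNA, and 8.48% with Torin1 and 2.43% with DMSO in polysome mRNA. Jun made up 29.6% with Torin1 and 28.0% with DMSO in total mRNA, and 21.5% with Torin1 and 17.9% with DMSO in polysome mRNA.

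The summed level of the 7 genes was 255 ± 19.2 ppm in total Torin1 and 265 ± 10.6 ppm in total DMSO libraries, with ranges that overlap (234.7 to 272.8 ppm with Torin1 and 257.9 to 277.3 ppm with DMSO). In polysome mRNA the sum was 294 ± 38.9 ppm with Torin1 and 356 ± 16.6 ppm with DMSO. There the ranges were apart, 255.4 to 333.3 ppm with Torin1 and 342.2 to 374.6 ppm with DMSO. The other 6 members without Jund summed to 151 ± 3.8 ppm with Torin1 and 115 ± 3.5 ppm with DMSO in total mRNA, and to 128 ± 15.1 ppm with Torin1 and 95.5 ± 7.5 ppm with DMSO in polysome mRNA. The lower Jund level and the higher levels of the 4 members that rose thus nearly offset each other in the total mRNA sum, while the polysome sum was lower with Torin1.

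**Figure D4:**
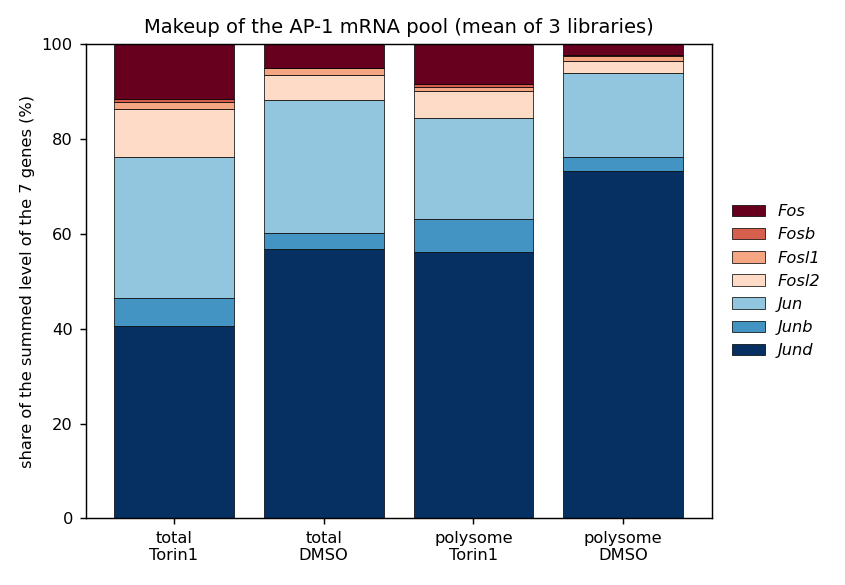
Share (percent) of each member in the summed level of the 7 AP-1 genes, as the mean of 3 libraries per group, for total and polysome mRNA of Torin1 and DMSO cells. Jund is the largest part of each bar, at 40.5% and 56.7% in total mRNA and 56.2% and 73.2% in polysome mRNA of Torin1 and DMSO cells.

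By mean level the order in total Torin1 libraries was Jund, Jun, Fos, Fosl2, Junb, Fosl1 and Fosb, with the ranges of all neighbours apart. In total DMSO libraries Fosl2 stood above Fos with overlapping ranges, and the other neighbours were apart. In polysome Torin1 libraries the order was Jund, Jun, Fos, Junb, Fosl2, Fosl1 and Fosb, where Fos and Junb overlapped, as did Fosl1 and Fosb. In polysome DMSO libraries Junb, Fosl2 and Fos followed Jun in that order, and Junb and Fosl2 overlapped, as did Fosl2 and Fos. By mean level Fos thus ranked 3 in both Torin1 groups, against 4 in total and 5 in polysome DMSO libraries. In 3 groups 1 library was the lowest for most members. Polysome Torin1 replicate 3 was the lowest of its group for 7 of 7 members, and total Torin1 replicate 2, the library with high Rn7sk, for 6 of 7, all but Fos. Polysome DMSO replicate 1 was the lowest of its group for 5 of 7, all but Fosb and Jund.

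Whether the change in polysome mRNA exceeded that in total mRNA was tested as an interaction in limma. None of the 7 members passed, against 0.0198% of all genes higher and 0.707% lower. For Fos the polysome change was larger by 0.35 on the log2 scale (95% interval 0.05 to 0.66), with an unadjusted p of 0.0257 and an adjusted p of 0.742 in limma. For Junb the difference was 0.21 (-0.15 to 0.57), for Fosl2 -0.05 (-0.44 to 0.33), for Jun -0.04 (-0.30 to 0.22) and for Jund -0.12 (-0.51 to 0.27). Under column-total scaling, which shifts the median gene by 0.29, these last 3 turned positive (0.22, 0.23 and 0.15). The intervals of Fosb (-0.95 to 2.16) and Fosl1 (-1.29 to 0.43) are too wide to place them. The members' median was -0.04 against 0.03 over all genes.

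Polysome mRNA against total mRNA shows how each member was spread between the fractions. Jund was the member most enriched on polysomes, with a log2 fold of polysome over total of 0.67 ± 0.13 in Torin1 cells (limma, adjusted p = 0.000938) and 0.79 ± 0.13 in DMSO cells (limma, adjusted p = 0.000266). Fosl2 was lower on polysomes in both, at -0.69 ± 0.12 in Torin1 cells (limma, adjusted p = 0.000727) and -0.64 ± 0.12 in DMSO cells (limma, adjusted p = 0.00119). Fos stood at -0.26 ± 0.10 in Torin1 cells (limma, adjusted p = 0.0546) and was lower on polysomes at -0.61 ± 0.10 in DMSO cells (limma, adjusted p = 0.000291). Jun was at -0.27 ± 0.09 in Torin1 cells (limma, adjusted p = 0.0259) and -0.23 ± 0.09 in DMSO cells (limma, adjusted p = 0.0520). Junb was at 0.39 ± 0.12 in Torin1 cells (limma, adjusted p = 0.0177) and 0.18 ± 0.12 in DMSO cells (limma, adjusted p = 0.244), where column-total scaling gave -0.19. Fosb and Fosl1 passed in neither.

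Thus 2 members were higher and 2 lower on polysomes in Torin1 cells, and 1 higher and 2 lower in DMSO cells. Calls of this kind were common, with 20.4% of all genes higher and 19.2% lower in Torin1 cells, and 20.5% higher and 20.5% lower in DMSO cells. With 7 members, counts of 1 and 2 stand close to that background. Several calls lay close to the threshold and changed with 1 library or with the processing. In Torin1 cells Jun was lost without total replicate 1 or 3 or polysome replicate 3 (limma, adjusted p = 0.0568, 0.0684 and 0.0564), and Junb without total replicate 2 or polysome replicate 1 (0.0574 and 0.0693). Fos passed as lower there without polysome replicate 1 (0.0437), and with all libraries under upper-quartile scaling (0.0102), under median-of-ratios scaling (0.0306) and with a 1 ppm filter (0.0387). In DMSO cells Fosb passed without total replicate 3 (0.0370). Jun passed as lower in DMSO cells without polysome replicate 2 (0.0485), under column-total, upper-quartile and median-of-ratios scaling (0.00185, 0.0159 and 0.0403), with the 1 ppm filter (0.0403), with the DMSO groups fitted alone (0.0163) and with each culture as a block (0.0492). In those settings 3 members were lower in DMSO cells.

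**Figure D5:**
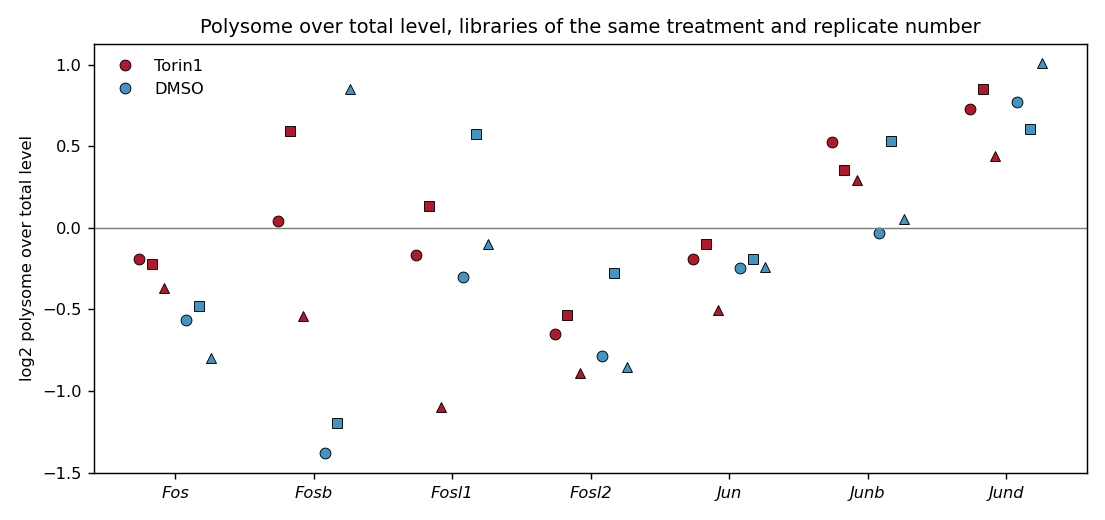
Log2 ratio of the polysome level to the total level for each AP-1 gene, from libraries of the same treatment and replicate number, with Torin1 in red left of DMSO in blue and circles, squares and triangles for replicates 1, 2 and 3. Jund lies above 0 and Fos, Fosl2 and Jun below 0 in all 6 pairs, and Fosb and Fosl1 scatter widely. For Jund, Fos, Fosl2 and Jun the fractions did not overlap within a treatment, so these signs do not depend on the pairing.

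Around the family, genes that act before, beside or after AP-1 were described from lists. For comparison, 3.04% of all genes tested rose and 4.35% fell in total mRNA, and 4.57% rose and 5.45% fell in polysome mRNA. In short lists a single call weighs heavily, and the count of no list was tested against these shares. Of 21 other basic leucine zipper genes tested 2 rose and 3 fell in total mRNA, and 3 rose and 3 fell in polysome mRNA. Maf, a factor with its own long DNA site, averaged 9.41 ± 0.84 ppm in total Torin1 and 5.72 ± 0.71 ppm in total DMSO libraries, and rose by a log2 fold of 0.72 ± 0.15 (limma, adjusted p = 0.0144). Jdp2, whose protein dimerises with Jun proteins and represses AP-1, averaged 3.78 ± 0.64 ppm in polysome Torin1 and 6.07 ± 0.73 ppm in polysome DMSO libraries, with a log2 fold of -0.68 ± 0.19 (limma, adjusted p = 0.0391). Its log2 fold in total mRNA was -0.62 (adjusted p = 0.0670). The medians of the list were 0.04 in total and 0.09 in polysome mRNA.

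Of 8 genes for factors that act at the Fos promoter, Srf and Creb1 among them, 0 passed in total mRNA and 2 rose in polysome mRNA, Elk3 and Elk1. These encode ternary complex factors, which bind beside serum response factor and are ERK substrates. Elk3 averaged 36.3 ± 3.1 ppm in polysome Torin1 and 25.3 ± 5.1 ppm in polysome DMSO libraries, and its log2 fold was 0.54 ± 0.12 (limma, adjusted p = 0.0175). Elk1 averaged 36.7 ± 3.9 ppm with Torin1 and 28.5 ± 1.1 ppm with DMSO, with its log2 fold at 0.36 ± 0.08 (limma, adjusted p = 0.0131). In total mRNA their log2 folds were 0.42 (adjusted p = 0.0636) and 0.21 (adjusted p = 0.146), and neither passed the interaction.

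Of 23 genes of the ERK, JNK and p38 kinase cascades 1 rose and 5 fell in total mRNA, and 1 rose and 4 fell in polysome mRNA. Mapk14, the p38 alpha kinase, averaged 21.2 ± 1.0 ppm in total Torin1 and 31.4 ± 2.6 ppm in total DMSO libraries, and its log2 fold was -0.56 ± 0.10 (limma, adjusted p = 0.00518). Map2k3, a kinase that activates p38, averaged 7.85 ± 0.76 ppm with Torin1 and 12.2 ± 0.68 ppm with DMSO, with its log2 fold at -0.64 ± 0.14 (limma, adjusted p = 0.0161). The one that rose was Map2k6, which encodes another kinase that activates p38, with a log2 fold of 0.38 ± 0.08 in total (limma, adjusted p = 0.0185) and 0.54 ± 0.08 in polysome mRNA (limma, adjusted p = 0.00178). It was named after its values were seen. The list medians were -0.13 in total and -0.17 in polysome mRNA.

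Among 11 genes for proteins that bind or deadenylate AU-rich mRNAs such as that of Fos, 1 rose and 2 fell in each fraction. Zfp36l1, which promotes decay of such mRNAs, averaged 54.7 ± 1.3 ppm in total Torin1 and 31.9 ± 1.3 ppm in total DMSO libraries, and its log2 fold was 0.78 ± 0.10 (limma, adjusted p = 0.000885). Tob1, a deadenylase adaptor, averaged 10.6 ± 1.6 ppm with Torin1 and 15.3 ± 1.1 ppm with DMSO, with its log2 fold at -0.54 ± 0.13 (limma, adjusted p = 0.0279). Among 6 genes for turnover of Jun proteins and for menin, a JunD-binding protein, 2 rose and 0 fell in each fraction. They were Trib1, at 15.7 ± 1.3 ppm in total Torin1 and 9.59 ± 0.21 ppm in total DMSO libraries (log2 fold 0.70 ± 0.10, limma, adjusted p = 0.00223), and Trib2, at 132 ± 3.6 ppm with Torin1 and 103 ± 2.2 ppm with DMSO (0.36 ± 0.07, adjusted p = 0.00808). Both encode scaffolds of the ubiquitin ligase COP1.

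Of 19 genes described as AP-1 targets in other cells 2 rose and 0 fell in total mRNA, and 4 rose and 1 fell in polysome mRNA. Plau, the urokinase gene, averaged 5.27 ± 0.60 ppm in total Torin1 and 2.78 ± 0.71 ppm in total DMSO libraries. Its log2 fold was 0.93 ± 0.18 in total (limma, adjusted p = 0.0108) and 1.20 ± 0.18 in polysome mRNA (limma, adjusted p = 0.00158). The list medians were 0.28 in total and 0.38 in polysome mRNA, against -0.01 and 0.00 over all genes. No gene of these 6 lists passed the interaction.

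The genes whose profile over the 12 libraries lay closest to that of Fos and of Jund were found among 8719 expressed genes, by the root mean square difference of centred log2 levels. For Fos they were Nr4a2, Prdm8, Fst, Flrt3 and Prokr2, with differences of 0.162, 0.168, 0.171, 0.211 and 0.227 against a median of 0.802 over the genes compared. Nr4a2 is a nuclear receptor gene and, like Fos, an immediate early gene in many cells, and its log2 folds were 1.31 in total and 1.33 in polysome mRNA. For Jund they were Hras, Rbm38, Rps19bp1, Sac3d1 and Sdhaf1, with differences of 0.103 to 0.124 against a median of 0.485. Hras, a small GTPase gene at the head of the ERK cascade, had log2 folds of -0.40 in total and -0.60 in polysome mRNA, and a polysome over total log2 fold of 0.91 in DMSO cells. Closeness here includes the difference between fractions as well as that between treatments. These genes were picked by profile, so folds like those of Fos or Jund follow from the choice. Whether they share regulation with Fos or Jund was not tested.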

How the data were processed

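The labels describe 12 libraries in 4 groups of 3 biological replicates, grouped here by title. Whether replicates came from separate litters is not stated, so p-values measure the spread between these samples. Per the submitters' processing notes, mm10, HTSeq 0.6.0 and STAR 2.7.9a were used, in roles not stated. The deposited signal is never negative and moves in steps of a fixed share of each column total (all low values on steps within a tolerance of 0.011), so it is not read counts. The authors' scaling: not given in the sources used here. No column of another sample was present (0 such columns).

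Own code scaled values by column total and then by an unweighted mean of log ratios, trimmed by 0.3 of ratios and 0.05 of abundances. Genes reaching 1 in at least 3 libraries were fitted with limma 3.58.1 in R 4.3.3 as log2(value + 1), where 1 equals 0.0578 ppm. The fit used all 12 libraries, 4 group means and variances that follow abundance. It was also run on simulated data with independent normal noise, in which only well expressed genes were changed. Changes of low genes such as Fosb are not covered by that run. P-values were adjusted by Benjamini-Hochberg over all genes in each of 5 comparisons, at 0.05. Folds on this scale understate changes of low genes. Gene coordinates are RefSeq's for GRCm38, the assembly of mm10.

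Named are all members, up to 2 genes per list with the largest fold past the threshold, and the 5 nearest genes to Fos and Jund. One gene that this rule takes is not reported here. Members and lists were chosen with earlier results of these data known. Markers and genes named to say which were called or why a list is shown come beside the rule. The CArG box is CC, 6 bases of A or T, then GG. Alternatives were 3 scalings, 2 filters, a pseudocount of 0.1, the compared groups alone, blocks, a 1.5-fold minimum and each library left out.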

Additional observations from a re-analysis of the deposited data

How the results depend on the processing

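Of 576 member values under 10 alternatives and 12 left-out libraries, 517 kept their direction and side of the threshold, 12 passed newly, 22 no longer passed and 25 changed sign. Of those 25, 0 passed the threshold before or after. Column-total scaling turned the log2 fold of Jun with Torin1 to -0.0055 in total and 0.23 in polysome mRNA, the interaction of Fosl2 to 0.22, of Jun to 0.23 and of Jund to 0.15, polysome over total of Fosl1 to -0.31 and of Junb to -0.19 in DMSO cells, and that of Fosb to -0.067 in Torin1 cells. Upper-quartile scaling turned Jun in polysome mRNA to 0.013 and polysome over total of Fosb in Torin1 cells to -0.052. With a library left out, ranges spanned 0 for Jun in total (-0.011 to 0.038) and polysome mRNA (-0.079 to 0.086), the interaction of Fosl2 (-0.12 to 0.062) and Jun (-0.096 to 0.067), and polysome over total of Fosl1 in DMSO (-0.10 to 0.21) and Fosb in Torin1 cells (-0.14 to 0.36). The count of members that rose with Torin1 was 3 or 4 in both fractions, with Fosb untested at the 1 ppm filter. The count that fell in total mRNA, 1 at first, ranged from 0 to 1 with a library left out and was 0 at a 1.5-fold minimum. In polysome mRNA it was 0 under column-total scaling and 0 with the compared groups alone. For polysome over total in Torin1 cells the count higher was 1 under column-total scaling, 1 under upper-quartile scaling and 1 at a 1.5-fold minimum, and 1 to 2 with a library left out. The count lower was 1 with the compared groups alone, 1 at a 1.5-fold minimum and 1 to 3 with a library left out. A 1.5-fold minimum can only remove calls, and the cause of the other changes was not tested. Over all genes, calls in total mRNA numbered 1496 (615 higher, 881 lower), but 841 under column-total scaling, 2655 with the compared groups alone, 644 at a 1.5-fold minimum and 896 higher and 533 lower under upper-quartile scaling. In polysome mRNA they numbered 2028, but 3240 under column-total scaling (2911 higher, 329 lower), 433 with the compared groups alone and 945 at a 1.5-fold minimum. Column-total scaling shifted the median gene by 0.23 in polysome mRNA, 0.29 in the interaction, -0.37 for polysome over total in DMSO cells and -0.11 in Torin1 cells, and gave 32 higher and 119 lower in the interaction (4 and 143 at first), 1853 and 6708 in DMSO cells (4159 and 4147) and 3176 and 4222 in Torin1 cells (4133 and 3892). With a library left out the calls numbered 738 to 906 in total mRNA, 1185 to 2715 in polysome mRNA and 102 to 225 in the interaction, so the shares of all genes called move too. The highest polysome and interaction counts came without polysome Torin1 replicate 3, and leaving out any 1 total library lowered the total count by over 1.5 times. A 1.5-fold minimum left 5426 of 8306 calls in DMSO and 5070 of 8025 in Torin1 cells. Same-numbered libraries deviated together only weakly (r from -0.22 to 0.20 between treatments in total and -0.23 to 0.33 in polysome mRNA, -0.085 to 0.028 between fractions in DMSO and -0.032 to 0.081 in Torin1 cells), and whether a number marks a lysate is not stated, so the numbers were not taken to pair libraries. With a replicate block the calls numbered 1269 in total mRNA, 1868 in polysome mRNA, 147 in the interaction, 8212 in DMSO and 7892 in Torin1 cells. The block on numbers changed no member call, and with each culture as a block Jun passed for polysome over total in DMSO cells (adjusted p = 0.0492, limma). Depth in reads is unknown, so the precision of the low Fosb values rests on 3 libraries a group.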
